A study of Mus musculus with 12 samples.

Results

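Perivascular macrophages and MHC class II antigen presentation were examined through 10 genes of the deposited mouse count table, which holds 53379 genes. The 10 rows were found by matching Ensembl identifiers to symbols. Mrc1, Cd163, Lyve1, Pf4, Cbr2, Ms4a7 and F13a1 are genes typical of perivascular and other border macrophages, and Cd74, H2-Aa and H2-Ab1 belong to MHC class II presentation. The rule names the genes and uses no measured value, though the 10 names were proposed with earlier results of these data known.

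RNA was sequenced from brain tissue, described as injured cortex, of wild-type C57BL/6J mice 6 months after repetitive closed head injury milder than mild traumatic brain injury (rlmTBI) or after sham treatment. The 4 groups of 3 libraries were injured mice on a cyclic high fat diet supplemented with fish oil (fish oil injured), sham mice on that diet (fish oil sham), injured mice on a continuous purified control diet (purified injured) and sham mice on the purified diet (purified sham). Because the fish oil diet was also a high fat diet and was cyclic, effects of fat content, of the schedule and of fish oil cannot be told apart. In the comparisons, fish oil stands for that whole diet. The labels do not tie the 12 libraries to separate animals, and p-values therefore measure the spread between libraries, part of which may be technical. The age of the mice is not given in the sources used here.

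Perivascular macrophages lie between the brain's vessels and its parenchyma, and related macrophages occupy the meninges and the choroid plexus. They take up proteins, lipids and haemoglobin from perivascular fluid through scavenger and lectin receptors, which distinguishes them from microglia, the macrophages of the parenchyma. MHC class II molecules are pairs of an alpha and a beta chain that show peptides to CD4+ T cells. In the resting mouse brain they are mostly carried by a subset of border macrophages and by dendritic cells. Class II genes share promoter elements, the X and Y boxes, which are bound by the RFX complex, CREB and NF-Y and need the coactivator CIITA.

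The promoters of H2-Aa and of the closely linked class II gene H2-Eb1 are shown so that the X and Y box elements known from class II genes can be seen in sequence. Both run from 250 bases before to 50 bases after the RefSeq start on chromosome 17 of GRCm38.p6, for H2-Aa from 34287774 to 34288073 on the minus strand and for H2-Eb1 from 34305617 to 34305916 on the plus strand. Capitals mark GCAACT, taken here as the core of the X1 box, and ATTGG, the core of the Y box.
H2-Aa: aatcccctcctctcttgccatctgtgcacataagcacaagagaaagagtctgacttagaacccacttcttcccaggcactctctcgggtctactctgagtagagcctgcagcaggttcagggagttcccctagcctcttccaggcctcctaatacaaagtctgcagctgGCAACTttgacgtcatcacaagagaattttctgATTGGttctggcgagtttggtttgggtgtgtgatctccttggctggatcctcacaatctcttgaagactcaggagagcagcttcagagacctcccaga
H2-Eb1: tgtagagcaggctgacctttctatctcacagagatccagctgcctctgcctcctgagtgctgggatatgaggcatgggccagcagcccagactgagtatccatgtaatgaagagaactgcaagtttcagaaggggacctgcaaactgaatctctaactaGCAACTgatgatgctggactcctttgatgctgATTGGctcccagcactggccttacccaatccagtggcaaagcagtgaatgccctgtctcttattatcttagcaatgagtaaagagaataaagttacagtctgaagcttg
In H2-Aa the X1 core began 81 bases before the start and the Y core 48 bases before it, with 27 bases between them. In H2-Eb1 the positions were 91 and 59, with 26 bases between. Another ATTGG on the opposite strand of H2-Eb1, at 35 bases before the start, is not in capitals. Searched on both strands of 32851 promoters of the same length, ATTGG was present in 37.4% and GCAACT in 10.9%, the 2 motifs do not overlap, and both stood on 1 strand at these spacings in 15 promoters, or 0.046%. The letters and the spacings were taken from these 2 sequences, so that share is not independent of them. H2-Eb2 is also among the 15, and it had a count of 0 in 10 of 12 libraries. H2-DMa, H2-DMb1, H2-DMb2, H2-Oa and H2-Ob had ATTGG and no GCAACT in their windows, and ATTGG was also present for Mrc1, Cd163, Pf4, Ms4a7 and F13a1. GCAACT was also present for Ms4a7, Ctsl and Cd80, in windows without ATTGG. A match is a description of the sequence only and was not related to the levels. RefSeq promoters were matched for 7 of the 10 genes.

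All 10 genes were detected at low levels in cortex, between 0 and 566 counts per library. Totals ran from 46362158 to 70754854 counts per library, and all 10 passed the filter on low counts that left 19252 genes. Levels are given as CPM, counts scaled by library size and TMM factors, in the order of replicates 2, 3 and 4. Per kilobase of exon and averaged over 12 libraries, Cd74 was highest at 3.15 CPM per kb, followed by H2-Aa at 0.922, Mrc1 at 0.759, Cbr2 at 0.479, H2-Ab1 at 0.456, Pf4 at 0.439, F13a1 at 0.428, Lyve1 at 0.295, Cd163 at 0.286 and Ms4a7 at 0.0855. On the same per-length scale the microglial genes P2ry12, a purine receptor, and Csf1r, the receptor for the growth factor CSF1, averaged 17.2 and 15.7 CPM per kb. In bulk tissue, fewer cells of a type and less RNA per cell cannot be told apart.

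No gene of the 10 was called as different between groups in any of 7 comparisons by edgeR's quasi-likelihood test with Benjamini-Hochberg adjustment over all 19252 genes. They covered the effect of injury on either diet, the effect of diet in injured and in sham mice, both effects averaged, and the interaction. The test called 0% of all genes in each of the 7 comparisons at an adjusted p under 0.05, so the count of 0 members is the background. At an unadjusted p under 0.05, 0 of the 10 members passed in any comparison, beside 3.48% of all genes for injury on the fish oil diet, 6.5% for injury on the purified diet, 10.7% for diet in injured mice, 3.69% for diet in sham mice, 3.6% for injury averaged over diets, 8.85% for diet averaged over injury states and 5.76% for the interaction. DESeq2 called no member either, and called between 3 and 186 genes of the whole table per comparison.

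Mrc1 encodes the mannose receptor CD206, an endocytic lectin used to mark border macrophages (chromosome 2, 14229392 to 14332057, plus strand, GRCm38). It had 2.94, 7.44 and 4.00 CPM in fish oil injured, 3.96, 3.38 and 8.43 CPM in fish oil sham, 2.44, 4.81 and 9 CPM in purified injured and 3.12, 3.62 and 4.85 CPM in purified sham libraries. A single library of each of the first 3 groups stood well above its neighbours, and all 4 groups overlapped. Group means lay between 5.42 ± 3.32 CPM (SD, n = 3) in purified injured and 3.86 ± 0.888 CPM (SD, n = 3) in purified sham, a range smaller than the spread within the 3 more variable groups. The gene also contains the microRNA gene Mir511 on the same strand.

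Cd163 encodes the scavenger receptor for haemoglobin bound to haptoglobin (chromosome 6, 124304656 to 124330527, plus strand). It had 1.09, 2.91 and 0.308 CPM in fish oil injured, 1.31, 0.465 and 2.13 CPM in fish oil sham, 1.48, 2.47 and 3.28 CPM in purified injured and 1.08, 1.06 and 1.18 CPM in purified sham libraries. All 3 purified injured libraries exceeded all 3 purified sham libraries, and no other member separated 2 groups in a comparison of single groups. Purified injured averaged 2.41 ± 0.903 CPM and purified sham 1.10 ± 0.062 CPM (SD, n = 3 each), a log2 fold change of 1.12 ± 0.69 (SE) with a 95% interval of -0.39 to 2.63. The edgeR p was 0.13, or 0.78 adjusted. Of all genes tested, 4.92% lay higher without overlap in this comparison and 6.68% lower, beside 1 of the 10 members, and nothing is read from that count. For injury on the fish oil diet these shares were 4.97% and 5.23%, for diet in injured mice 5.6% and 5.98%, and for diet in sham mice 6.31% and 7.45%, and 0 members separated in those comparisons.

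Lyve1 encodes a hyaluronan receptor carried by perivascular macrophages and by lymphatic endothelium (chromosome 7, 110850607 to 110863239, minus strand). Its levels were 0.800, 1.19 and 0.654 CPM in fish oil injured, 0.570, 0.451 and 1.11 CPM in fish oil sham, 0.591, 0.978 and 1.58 CPM in purified injured and 0.992, 0.681 and 0.713 CPM in purified sham libraries. The groups overlapped throughout, and this was the only member whose highest purified sham library was replicate 2. Averaged over diets it was at 0.966 CPM in injured and 0.754 CPM in sham mice, a log2 fold change of 0.35 ± 0.32 (SE, edgeR adjusted p = 0.99).

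Pf4 encodes the chemokine CXCL4, known from platelets and strongly expressed by border macrophages (chromosome 5, 90772435 to 90773383, plus strand). Levels were 0.363, 1.09 and 0.269 CPM in fish oil injured, 0.209, 0.366 and 0.291 CPM in fish oil sham, 0.0788, 0.245 and 0.360 CPM in purified injured and 0.132, 0.106 and 0.285 CPM in purified sham libraries. Pf4 and H2-Ab1 were the only members whose means were higher in both fish oil groups than in both purified groups, and the library ranges of Pf4 still overlapped. Averaged over injury states it was at 0.431 CPM on fish oil and 0.201 CPM on the purified diet, which is a log2 fold change of 1.02 ± 0.49 (SE) with a 95% interval of -0.04 to 2.08. This was the lowest p of the 70 member tests, at 0.057 unadjusted and 0.57 adjusted by edgeR. In injured mice the log2 fold change between diets was 1.33 ± 0.68 (SE, edgeR adjusted p = 0.51). Without fish oil injured replicate 3 these differences were 0.60 averaged and 0.47 in injured mice. Pf4 rests on 4 to 62 counts per library. Ppbp, another platelet chemokine, was at 0.0323 to 0.749 CPM, and 5 of 7 platelet genes stayed under 1 CPM in every library.

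Cbr2, a carbonyl reductase that marks resident tissue macrophages (chromosome 11, 120729489 to 120732114, minus strand), had 0.145, 0.948 and 0.385 CPM in fish oil injured, 0.647, 0.620 and 0.904 CPM in fish oil sham, 1.14, 0.571 and 0.760 CPM in purified injured and 0.529, 0.341 and 0.642 CPM in purified sham libraries. Its highest library was purified injured replicate 2, where most other members were low. The effect of injury was a log2 fold change of -0.55 ± 0.56 on fish oil and 0.70 ± 0.57 on the purified diet (SE). The interaction, the fish oil effect minus the purified effect, was -1.25 ± 0.80 (SE, 95% interval -3 to 0.49), with the lowest interaction p of the 10 members at 0.14, or 0.82 adjusted by edgeR. Without fish oil injured replicate 3 the injury effect on fish oil was -1.44 and the interaction -2.15, and without fish oil injured replicate 2 they were -0.12 and -0.82.

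Ms4a7, an MS4A family membrane protein found in border macrophages and not in resting microglia (chromosome 19, 11321039 to 11336146, minus strand), had 0.254, 0.597 and 0.423 CPM in fish oil injured, 0, 0.592 and 0.452 CPM in fish oil sham, 0.355, 0.245 and 0.640 CPM in purified injured and 0.248, 0.319 and 0.446 CPM in purified sham libraries. The count of 0 in fish oil sham replicate 2 allows up to 0.057 CPM, taking 3 counts as the floor and covering counting error only, and more if both mates of a pair were counted. Ms4a7 had the widest spread of the 10 genes and its group means ran only from 0.425 to 0.338 CPM.

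F13a1 encodes the catalytic A subunit of clotting factor XIII, a transglutaminase that cross-links fibrin and is made by macrophages (chromosome 13, 36867178 to 37050244, minus strand). It had 1.2, 5.47 and 2.44 CPM in fish oil injured, 2.78, 2.48 and 3.55 CPM in fish oil sham, 1.38, 3.44 and 5.44 CPM in purified injured and 1.72, 2.13 and 2.55 CPM in purified sham libraries. The order of its libraries resembled that of Mrc1. Injury on the purified diet gave a log2 fold change of 0.68 ± 0.54 (SE, edgeR adjusted p = 0.83), and without purified injured replicate 4 it was 0.18. Antisense genes Gm30489 and Gm49144 overlap F13a1, and the strand setting of the counting is not given in the sources used here.

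Cd74 encodes the invariant chain, which guides class II dimers to the endosome and blocks their groove until peptide is loaded. It had 3.76, 9.93 and 2.69 CPM in fish oil injured, 6.77, 4.51 and 7.38 CPM in fish oil sham, 3.09, 4.89 and 8.66 CPM in purified injured and 2.94, 3.66 and 5.20 CPM in purified sham libraries. The highest and the lowest library of all 12 were both in the fish oil injured group. In sham mice Cd74 averaged 6.22 ± 1.51 CPM on fish oil and 3.94 ± 1.16 CPM on the purified diet (SD, n = 3 each), with a log2 fold change of 0.66 ± 0.49 (SE, 95% interval -0.41 to 1.73, edgeR adjusted p = 0.93).

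H2-Aa and H2-Ab1 encode the alpha and the beta chain of the I-A molecule, the class II dimer of the C57BL/6 strain. They are neighbours on chromosome 17, H2-Ab1 from 34257689 to 34269419 on the plus strand and H2-Aa from 34282744 to 34287823 on the minus strand, with 13324 bases between them. H2-Aa had 3.02, 5.79 and 1.39 CPM in fish oil injured, 4.45, 2.25 and 5.68 CPM in fish oil sham, 2.32, 3.55 and 5.60 CPM in purified injured and 1.62, 2.45 and 3.92 CPM in purified sham libraries. H2-Ab1 had 1.45, 1.83 and 0.308 CPM in fish oil injured, 2.13, 0.747 and 1.94 CPM in fish oil sham, 0.670, 0.774 and 1.80 CPM in purified injured and 0.562, 0.681 and 1.18 CPM in purified sham libraries. Both chains were high in the same library of the fish oil injured, purified injured and purified sham groups, and both were lowest of all in fish oil injured replicate 4. In sham mice the difference between diets was a log2 fold change of 0.63 ± 0.54 for H2-Aa and 0.99 ± 0.64 for H2-Ab1 (SE), and that of H2-Ab1 had a 95% interval of -0.40 to 2.38 and an edgeR p of 0.15, or 0.93 adjusted.

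**Figure D1:**
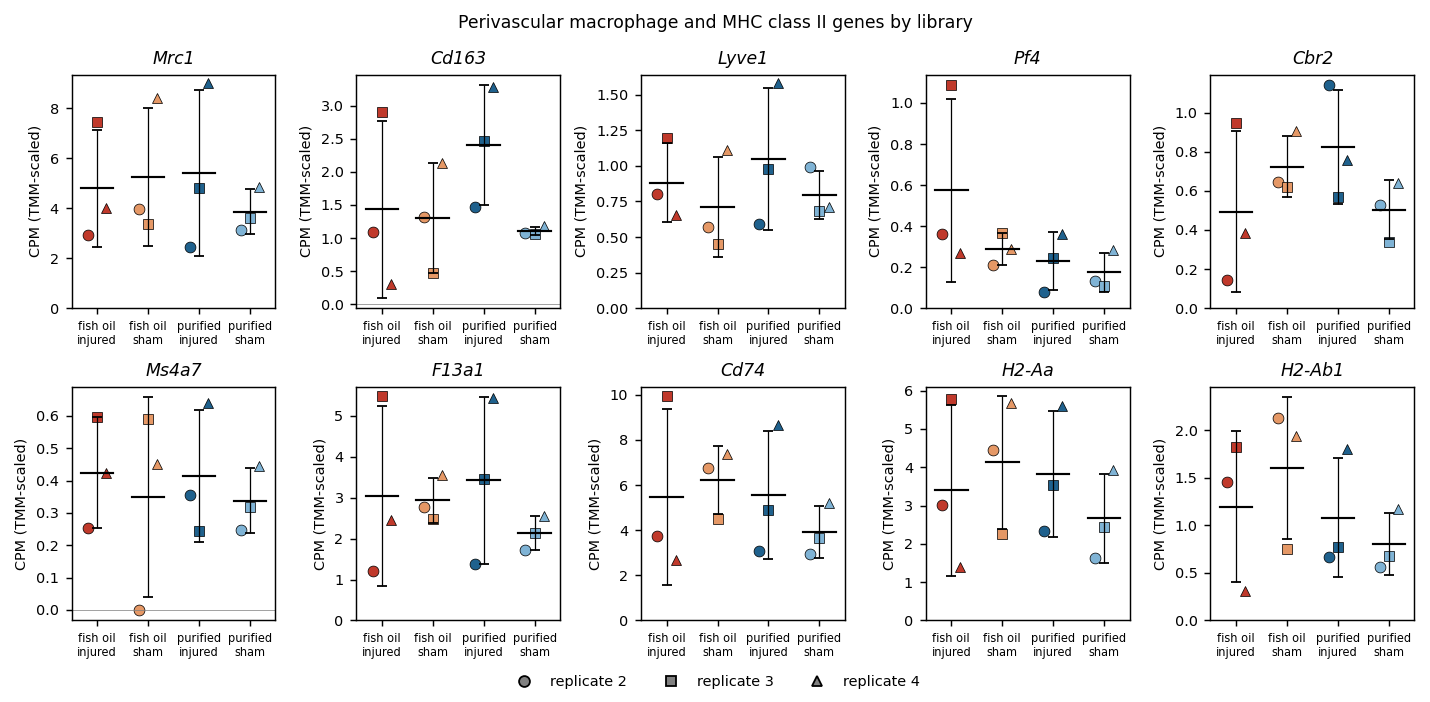
Each panel plots 1 gene, with CPM on the vertical axis, the 4 groups on the horizontal axis, 1 point per library shaped by replicate number, a bar at the group mean and whiskers of 1 SD. Purified sham libraries lie close together for most genes, while in the fish oil injured group replicate 3 is the highest point in all 10 panels.

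The purified sham group had the lowest mean of the 4 groups for Mrc1, Cd163, Pf4, Ms4a7, F13a1, Cd74, H2-Aa and H2-Ab1. Both comparisons against it, injury on the purified diet and fish oil in sham mice, share those 3 libraries. For injury on the purified diet, 10 of 10 log2 fold changes were above 0, from 0.29 to 1.12, with a median of 0.49 for the 7 macrophage genes and 0.50 for the 3 class II genes beside 0.003 over all genes. For fish oil in sham mice 9 of 10 were above 0, with medians of 0.44 and 0.66 beside 0.006 over all genes. Without purified injured replicate 4 the medians for injury on the purified diet were -0.022 and 0.020, and without fish oil sham replicate 4 the macrophage median for diet in sham mice was -0.075.

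The comparisons that do not use purified sham libraries gave no common direction. For injury on the fish oil diet 5 of 10 members were above 0, with medians of 0.15 for the macrophage genes and -0.28 for the class II genes beside -0.005 over all genes. The members with the smallest p there were Pf4 at 0.98 ± 0.66, Cbr2 at -0.55 ± 0.56 and Lyve1 at 0.31 ± 0.45 (SE), and without fish oil injured replicate 3 these values were 0.13, -1.44 and 0.04. Without fish oil injured replicate 3 the medians were -0.591 and -0.903, and without fish oil injured replicate 4 the class II median was 0.085. For fish oil in injured mice 3 of 10 were above 0, with medians of -0.175 and -0.021 beside 0.006 over all genes. Cbr2 was at -0.74 ± 0.57 and Cd163 at -0.74 ± 0.68 (SE) there, and without fish oil injured replicate 3 they were at -1.63 and -1.78. Those medians were -0.639 and -0.781 without fish oil injured replicate 3, and 0.335 and 0.454 without purified injured replicate 4.

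Averaged over diets, injury gave medians of 0.354 and 0.122 beside 0.001 over all genes, and Pf4 at 0.68 ± 0.48 and Cd163 at 0.63 ± 0.48 (SE) had the smallest p, 0.19 and 0.22 by edgeR. Averaged over injury states, fish oil gave medians of 0.051 and 0.319 beside 0.013 over all genes, with H2-Ab1 at 0.57 ± 0.45 and Cd74 at 0.32 ± 0.34 (SE). Without fish oil injured replicate 3 the Cd74 value was -0.061, the class II median was -0.061 and the macrophage median was -0.222, and the class II median for injury was -0.216. The interaction was below 0 for 9 of 10 members, with medians of -0.619 and -0.801 beside -0.021 over all genes, H2-Aa at -0.80 ± 0.76 and Cd163 at -0.97 ± 0.97 (SE). Without purified injured replicate 4 the interaction medians were -0.039 and -0.258, and without fish oil injured replicate 3 they were -1.08 and -1.43. With the meningeal fibroblast score as a covariate, the macrophage median of the interaction was 0.075. The class II members stayed below 0 in that fit, with Cd74 at -0.24 ± 0.29, H2-Aa at -0.32 ± 0.43 and H2-Ab1 at -0.23 ± 0.65 (SE). Across the 40 member tests between single groups the standard error was 0.45 to 0.89 on the log2 scale, and the 95% intervals of all 40 contained 0.

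**Figure D2:**
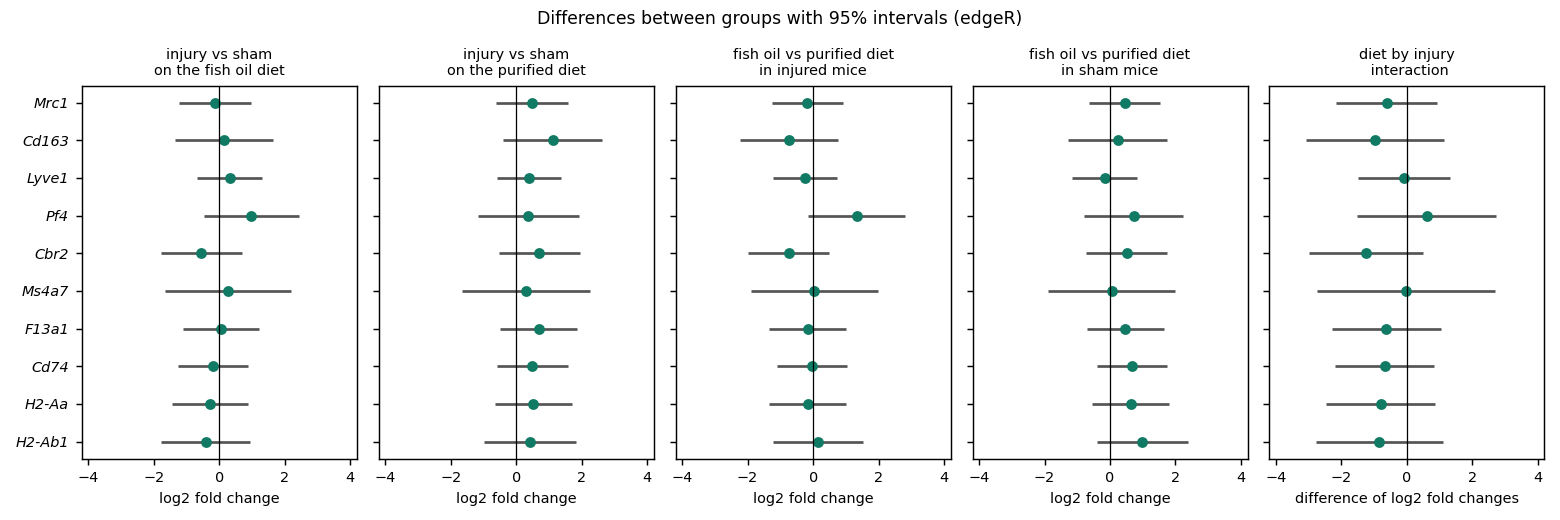
Points give the log2 fold change of each member (horizontal axis) in the 4 comparisons of single groups and, in the right panel, the difference between the injury effects on fish oil and on the purified diet, with bars for 95% intervals from edgeR. Every interval contains 0, and all 10 points lie above 0 only in the second panel, for injury on the purified diet.

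The members varied together from library to library inside the groups. In fish oil injured, replicate 3 was the highest library for 10 of 10 members. Replicate 4 was the highest for 7 of 10 in fish oil sham, for 9 of 10 in purified injured and for 9 of 10 in purified sham. After subtraction of group means, the 3 class II pairs correlated over 12 libraries at r = 0.84 to 0.94, H2-Aa with Cd74 highest. The 21 macrophage pairs had a median r of 0.50, from -0.03 to 0.91, with Mrc1 and F13a1 highest, and the 21 pairs across the sets a median of 0.65, with Cd163 and H2-Aa at 0.91. Ms4a7 and Cbr2 followed the rest least. Pf4, also low at 4 to 62 counts per library, correlated with Cd74 at 0.84 and with F13a1 at 0.80. With Ms4a7 and Cbr2 it was at 0.42 and 0.37. These correlations share library and dissection, and are given as descriptions.

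**Figure D3:**
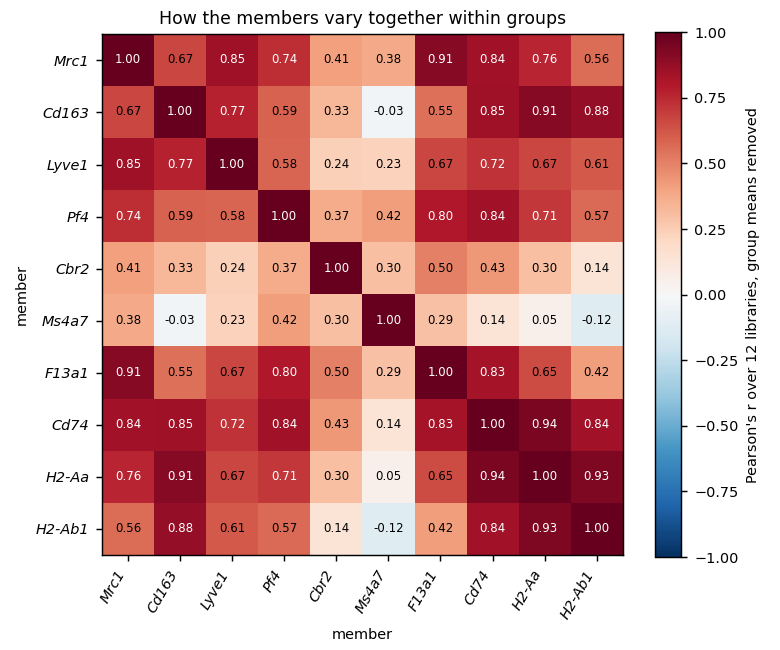
Each cell is Pearson's r between 2 members (rows and columns) over 12 libraries after group means were removed, coloured from blue (-1) to red (1). The class II block at the lower right lies at 0.84 to 0.94, and the Ms4a7 row is palest, with values as low as -0.12.

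Transcripts of meningeal fibroblasts moved with the members. The 12 genes of that list, among them the proteoglycans Dcn and Ogn, the retinoic acid enzyme Aldh1a2 and the GABA transporter Slc6a13, all had counts, and 11 passed the filter. Their summed level ran from 39.5 to 191 CPM in fish oil injured, from 72.2 to 179 CPM in fish oil sham, from 48.3 to 214 CPM in purified injured and from 53.9 to 77.8 CPM in purified sham libraries. Dcn was at 33.3, 82.7 and 8.57 CPM in fish oil injured, 19.6, 13.3 and 79.4 CPM in fish oil sham, 7.01, 16.3 and 93.1 CPM in purified injured and 11, 8.49 and 16.6 CPM in purified sham libraries. The 3 libraries with the most Dcn, fish oil injured replicate 3, fish oil sham replicate 4 and purified injured replicate 4, were also the highest of their groups for most members. Within groups the mean log2 CPM of this list correlated with that of the macrophage members at r = 0.90 (Spearman 0.73) and with that of the class II members at r = 0.90 (Spearman 0.94). Without the 2 libraries farthest from the median of the list, fish oil injured replicate 3 and purified injured replicate 4, r was 0.78 and 0.86 over 10 libraries.

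Of the other lists, the 23 tested border macrophage genes followed the macrophage and the class II members at r = 0.86 and 0.84. The 4 tested genes of the lymphatic endothelial list were at 0.66 and 0.88. They were Prox1, Flt4, Pdpn and Reln, with Reln at 87.0 to 412 CPM and highest in purified injured replicate 3. The 4 genes did not move alike. In fish oil injured, Pdpn and Reln were highest in replicate 3, at 12.1 and 289 CPM. Prox1 was lowest there, at 15.6 CPM, and Flt4 was highest in replicate 4, at 1.155 CPM. In purified injured, Prox1 was highest in replicate 4, at 18 CPM. Ccl21a and Mmrn1 of the same list, at up to 0.276 and 0.213 CPM, did not pass the filter. Whether the 4 genes came from lymphatic vessels was not tested. The 16 microglial genes correlated with the macrophage and the class II members at r = 0.44 and 0.58. Without the 2 farthest libraries these were 0.12 and 0.35. The endothelial list was at -0.24 and -0.34. Pericyte and smooth muscle genes were at 0.60 and 0.50, and red cell genes at 0.57 and 0.66. Without the 2 libraries farthest for each list, these were 0.55 and 0.56, and 0.33 and 0.48. Choroid plexus transcripts were high in fish oil injured replicates 3 and 4, with Ttr, the plexus transthyretin, at 2417 and 2256 CPM, and correlated with the members at 0.30 and -0.05. Of those 2 libraries the first was the highest of its group for all 10 members and the other the lowest for 6 of 10. Purified injured replicate 3 carried olfactory bulb transcripts and fish oil sham replicate 2 striatal ones, and no member was called without these 2 libraries. Striatal transcripts also reached 616 CPM, summed over that list, in a purified sham library, where the group median was 105 CPM. Ttr was also at 434 CPM in purified sham replicate 3 and 186 CPM in fish oil injured replicate 2. Omitting the 2 libraries did not remove these other signals. Lists of other blood cells were mixed. Of 11 dendritic cell genes, 7 stayed under 1 CPM in every library, among them Xcr1 at 0 to 0.038 CPM, as did Ms4a7 of the 10 members. The other 4 were Flt3 at 5.23 to 19.6 CPM, Zbtb46 at 10.7 to 22 CPM, Fscn1 at 51.4 to 75.2 CPM and Cd209a. Cd209a was at 2.67 CPM in fish oil injured replicate 3, 1.53 CPM in fish oil sham replicate 4 and 3 CPM in purified injured replicate 4, the highest library of each of those groups. Flt3 was instead lowest of its group in fish oil injured replicate 3, at 5.23 CPM, and in purified injured replicate 4, at 7.02 CPM. Fscn1 was lowest in fish oil sham replicate 4 and purified injured replicate 4, at 59.9 and 51.5 CPM. Zbtb46 was highest in fish oil injured replicate 3 and fish oil sham replicate 4, at 19.0 and 16.8 CPM. Which cells these transcripts came from was not tested. The 7 tested genes of this list correlated with the macrophage and the class II members at r = 0.62 and 0.53. Of 9 monocyte and neutrophil genes, 8 stayed under 1 CPM, with Ly6c2 at 0 to 0.0713 CPM and S100a9 at up to 1.64 CPM, and the 4 tested correlated at 0.21 and 0.74. Of 9 T and NK cell genes, 8 stayed under 1 CPM, with Cd3e at 0 to 0.145 CPM. The other was Cd4, at up to 25.5 CPM in fish oil sham replicate 2, where Cd3e had a count of 0. The 2 tested, Trac and Cd4, correlated at -0.49 and -0.25. Whether this Cd4 signal came from T cells was not tested. The part of these cells in the members' levels was not tested.

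When the meningeal fibroblast score was added to the fit as a covariate, a setting chosen after the data had been seen, the spread narrowed for most members and hardly for Cbr2 and Ms4a7. The biological coefficient of variation was 0.207 with the score and 0.421 without it for Cd74, 0.256 and 0.431 for Mrc1, 0.276 and 0.461 for H2-Aa, and 0.374 and 0.574 for Cd163, beside 0.212 and 0.227 for the median of all genes. For Cbr2 it was 0.438 with the score and 0.466 without it, and for Ms4a7 0.679 and 0.687. For injury on the purified diet the log2 fold change of Mrc1 was then 0.12 ± 0.27, of Cd74 0.17 ± 0.20 and of Cd163 0.81 ± 0.43 (SE). For fish oil in injured mice Cd163 was at -1.12 ± 0.44 and Pf4 at 1.24 ± 0.55 (SE), with edgeR adjusted p = 0.39 and 0.42. Averaged over injury states Cd163 was at -0.88 ± 0.34 (SE, edgeR adjusted p = 0.65) with the score and -0.25 ± 0.48 (SE) without it. Of the 70 member tests with the score, only these 3 had an unadjusted edgeR p under 0.05, at 0.027, 0.046 and 0.024, and no member was called. The share of all genes under 0.05 with the score is not given here. Without the score it was 10.7% for diet in injured mice and 8.85% for diet averaged over injury states. Nothing is read from the 3 values. The score was measured in the same libraries, and how far the amount of meninges in a sample sets the members' levels was not tested.

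**Figure D4:**
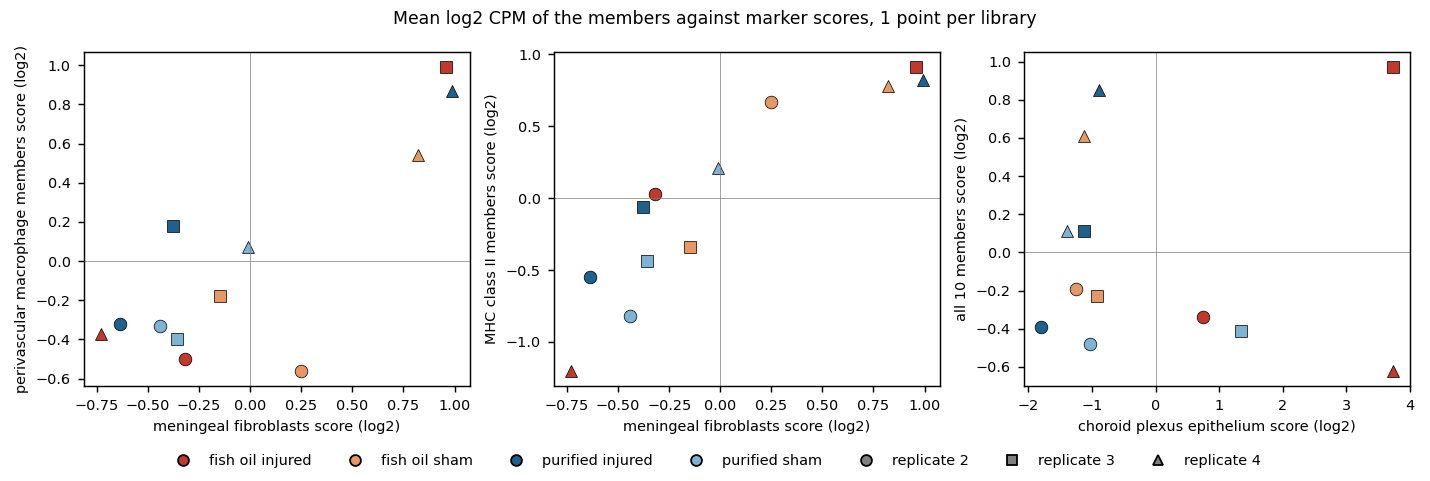
Each point is 1 library, coloured by group and shaped by replicate, with the mean log2 CPM of the macrophage members (left), class II members (middle) or all 10 members (right) on the vertical axis, centred over libraries, and the meningeal fibroblast or choroid plexus score on the horizontal axis. The 3 libraries at the upper right of the first 2 panels are fish oil injured replicate 3, fish oil sham replicate 4 and purified injured replicate 4, and the right panel shows no such ordering.

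The genes outside the 10 whose level followed the macrophage members most closely within groups, among 13061 genes, were the proline transporter gene Slc6a20a at r = 0.95, Hspa2 and Mtfp1 at 0.94, Mrpl49 and the aminopeptidase gene Anpep at 0.93, and Colec12, Egflam and Slc22a6 at 0.92. Those that followed the class II members were Car13, the actin-binding caldesmon gene Cald1 and Mpzl2 at r = 0.98, Rasl11a at 0.97, and Usp51, Hcar1, Abca9 and Ahnak at 0.96. Each is the highest of many correlations over 12 libraries and is listed as a description.

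Of 27 other genes of border macrophages, 23 were tested and 0 passed the adjusted threshold in any comparison. For injury on the purified diet 18 of 23 were above 0, the median log2 fold change was 0.345 beside 0.003 over all genes, and 2 had an unadjusted p under 0.05 beside 6.5% of all genes. These were the C-type lectin genes Cd209b and Cd209f, paralogs whose reads the counting may have split. Cd209b was at 0.433, 0.938 and 0.660 CPM in purified injured and 0.0661, 0.255 and 0.143 CPM in purified sham libraries, without overlap, and its log2 fold change was 2.14 ± 0.79 (SE, edgeR adjusted p = 0.76). Cd209f was at 0.355, 1.69 and 1.52 CPM in purified injured and 0.479, 0.170 and 0.392 CPM in purified sham libraries, with overlap, and its log2 fold change was 1.76 ± 0.67 (SE, edgeR adjusted p = 0.76). On fish oil Cd209f averaged 0.457 CPM in injured and 0.606 CPM in sham mice, and its interaction was -2.16 ± 0.93 (SE, edgeR adjusted p = 0.82). Stab1, the scavenger receptor stabilin-1, had 9.36, 18 and 7.29 CPM in fish oil injured and 11.2, 9.95 and 13.2 CPM in fish oil sham libraries, again highest in fish oil injured replicate 3.

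Of 19 other genes of the class II pathway in the table, 18 were tested and 0 passed the adjusted threshold. H2-Eb1, which like H2-Aa and H2-Ab1 encodes a class II chain, had 1.31, 3.32 and 1.48 CPM in fish oil injured, 2.24, 1.44 and 3.31 CPM in fish oil sham, 1.42, 1.94 and 3.20 CPM in purified injured and 1.11, 0.936 and 2.09 CPM in purified sham libraries, with the same high libraries. H2-DMb2, a beta chain of the H2-M complex that exchanges peptides on class II, did not follow them. It was at 0.145, 0.263 and 0.346 CPM in fish oil injured, 0.190, 0.254 and 0.323 CPM in fish oil sham, 0.886, 0.774 and 0.740 CPM in purified injured and 0.347, 0.170 and 0.428 CPM in purified sham libraries. All 3 purified injured libraries lay above the other 9. The share of all genes that separate in this way was not counted, and nothing is read from it. Its log2 fold change was -1.66 ± 0.47 (SE, edgeR adjusted p = 0.37) for fish oil in injured mice and 1.33 ± 0.46 (SE, edgeR adjusted p = 0.76) for injury on the purified diet. H2-DMb2 and H2-DMb1 are close paralogs, and H2-DMb1 averaged 1.43 CPM in fish oil injured, 1.27 CPM in fish oil sham, 1.60 CPM in purified injured and 0.978 CPM in purified sham libraries.

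Among regulators of class II transcription, Ciita was at 0 to 0.36 CPM and its inducer Ifng, interferon gamma, had a count of 0 in all 12 libraries. Rfx5, a subunit of the RFX complex, was at 21.1 CPM in fish oil injured and 29.3 CPM in purified injured libraries on average, with a log2 fold change of -0.47 ± 0.17 (SE, edgeR adjusted p = 0.41). Ctss, the protease cathepsin S that trims the invariant chain and is also abundant in microglia, was at 52.6 to 89.0 CPM. For injury on the purified diet 12 of the 18 pathway genes were above 0 (median log2 fold change 0.152), and for fish oil in injured mice 6 of 18 (median -0.032).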

How the data were processed

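The deposited table holds the authors' raw read counts per gene for 12 libraries. Per the submitters' processing notes, reads were handled with STAR (2.5.2a) and featureCounts (1.4.3-p1) on mm10. The strand setting is not given in the sources used here, nor are the annotation and the handling of multimapping reads. Values of 2 (20514) outnumbered values of 1 (11222), so both mates of a pair may have been counted. Symbols and GRCm38 positions came from GENCODE M21, in which 53274 of 53379 identifiers matched without version.

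Counts were fitted with edgeR 4.0.16 (R 4.3.3; TMM, filterByExpr at a minimum count of 10, robust quasi-likelihood F test, 4 group means, 12 libraries, 8 residual degrees of freedom), with Benjamini-Hochberg adjustment over 19252 genes and a threshold of 0.05. Standard errors were derived from the F statistic. List scores are mean log2 CPM with a prior count of 2. DESeq2 1.42.0 and limma 3.58.1 (voom) were alternatives, with other filters, RLE factors, the compared groups only, a replicate block and each library left out. The procedure was tested on simulated data. Replicate libraries differed far beyond sampling noise, so each counted once. The 10 genes, the gene lists and the naming rule (all 10 members; in each comparison the 3 members with the smallest p; up to 2 genes of other lists; the 8 genes closest in pattern) were chosen with earlier results of these data known. Of the lists, those for blood cells, vessels, neurons and signals are given only where they bear on the members. The B cell list is not reported here. Halved counts and the meningeal score covariate were chosen after seeing the data. The common biological coefficient of variation was 0.289, above the counting error of most members.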

Additional observations from a re-analysis of the deposited data

How the results depend on the processing

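No member was called under any alternative in any comparison. Fold changes were recomputed for the 3 members with the smallest p in each comparison, so the tally leaves out members with smaller differences. Of these 443 values, 1 changed sign and the lowest adjusted p was 0.287. That 1 was Cd74 for fish oil averaged over injury states, which ranged from -0.061 to 0.556 when single libraries were left out. Counts of genes called, 0 by edgeR, did depend on the tool. DESeq2 called 37 genes for injury on fish oil, 14 for injury on the purified diet, 186 for diet in injured mice, 17 for diet in sham mice, 3 for injury averaged, 99 for diet averaged and 21 for the interaction. Limma-voom called 1 for injury on fish oil and 2 for injury averaged. Keeping every gene with a count gave 1 for injury averaged and 2 for diet averaged, and omitting the 2 libraries with transcripts of other regions gave 1 for diet in injured mice. Leaving out single libraries gave 0 to 7 genes for injury on fish oil (7 without fish oil injured replicate 2), 0 to 61 for diet in injured mice (61 without purified injured replicate 4) and 0 to 7 for diet averaged. Across the same omissions the macrophage median ranged from -0.591 to 0.487 for injury on fish oil, and the class II median from -0.781 to 0.454 for diet in injured mice. With the meningeal fibroblast score as covariate the macrophage median of the interaction was 0.075, while Cd74, H2-Aa and H2-Ab1 were at -0.24, -0.32 and -0.23. The cause of these shifts was not tested. With the replicate block, 0 members and 0 genes were called in each comparison, and the macrophage median for injury on the purified diet was 0.349. Same-numbered libraries did not deviate together (r -0.37 to 0.28, median -0.02, 18 pairs), so the numbers were not taken as pairs. Between-library spread, and for Pf4, Cbr2 and Ms4a7 also counts under 70 per library, limit what can be resolved.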
